A study of Mus musculus with 2 samples.

Results

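Interferon-stimulated antiviral genes and the neighbouring Schlafen family were examined in Langerhans cells of mice with and without IL-34 after ultraviolet exposure. The set was a list of 38 genes, 32 effectors of type I interferon and 6 Schlafen genes, named by symbol. Of these, 35 had a probe set carrying their symbol alone, out of 19937 genes measured that way. Isg15 and Ifi204 were read only by probe sets that carry a further gene symbol and Ifi44 was unnamed in the annotation used here, so no value is given for these 3. Each of the 35 had 1 such probe set.

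Both groups consisted of cells sorted for Langerin and Epcam from animals 8 to 12 weeks old, collected 21 days after a 30 min ultraviolet treatment. The control array held RNA of Il34+/LacZ mice, which keep 1 working Il34 allele, and the other array RNA of Il34LacZ/LacZ mice, which have the LacZ insertion in both alleles. IL-34 is a keratinocyte-derived ligand of the CSF1 receptor, so the deficit lies in the animal as a whole and not in the sorted cells alone. No unexposed and no Il34+/+ group was analysed here. With 1 array per genotype there was no replicate error and no test between genotypes. Whether an array held RNA of a single animal or of a pool is not stated in the labels.

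Type I interferons bind a receptor of the IFNAR1 and IFNAR2 chains, which acts through the kinases JAK1 and TYK2. These activate a complex containing STAT2 and IRF9 that binds the interferon-stimulated response element in promoters. The resulting proteins detect viral nucleic acid, degrade or edit RNA, block translation and retain viral particles. Schlafen genes form a family clustered on mouse chromosome 11, several of which are interferon-inducible and which act in leukocyte proliferation and myeloid differentiation.

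The response element was looked for in RefSeq promoter windows of assembly GRCm38.p6, which run from 250 bases before to 50 bases after the annotated start. The motif searched was GAAA, any pair of bases and GAAA again, on both strands. Windows were available for 28 of the 38 genes, and 14 of these 28 (50%) held a match, against 1079 of 27025 genes (3.99%) in the whole table. As a comparison motif, the gamma-activated site TTCNNNGAA, whose letters read the same on both strands, was found in 8 of 28 genes (28.6%) against 9.55% of all genes. Matches of the response element lay before the start in 11 genes, from 14 to 156 bases away, and 5 genes held more than 1 match in a window. Overlapping matches were counted separately, and the match of Slfn8 appears in both of its windows, which overlap.

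The 6 promoters printed here belong to the members with the largest differences that hold a match, 3 that read higher and both that read lower in Il34LacZ/LacZ, and to Slfn4, which differed most of all members. Each run holds the 200 bases before the start, 5′ to 3′ on the strand of the gene, with matches of the motif in capitals.
Rsad2 (chr12:26456453-26456652, minus strand): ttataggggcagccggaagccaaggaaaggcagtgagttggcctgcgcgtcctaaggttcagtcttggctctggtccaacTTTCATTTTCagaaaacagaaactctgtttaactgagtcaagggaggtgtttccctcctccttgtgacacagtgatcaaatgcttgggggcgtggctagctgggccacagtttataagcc
Ifit1 (chr19:34640689-34640888, plus strand): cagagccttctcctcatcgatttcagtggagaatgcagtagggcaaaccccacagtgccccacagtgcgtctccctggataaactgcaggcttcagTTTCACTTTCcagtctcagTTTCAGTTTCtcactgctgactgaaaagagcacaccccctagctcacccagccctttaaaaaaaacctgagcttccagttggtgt
Bst2 (chr8:71537473-71537672, minus strand): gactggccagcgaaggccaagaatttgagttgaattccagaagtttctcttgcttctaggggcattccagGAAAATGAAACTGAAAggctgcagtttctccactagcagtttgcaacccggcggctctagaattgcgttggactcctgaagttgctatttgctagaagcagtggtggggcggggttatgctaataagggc
Slfn5 (chr11:82951902-82952101, plus strand): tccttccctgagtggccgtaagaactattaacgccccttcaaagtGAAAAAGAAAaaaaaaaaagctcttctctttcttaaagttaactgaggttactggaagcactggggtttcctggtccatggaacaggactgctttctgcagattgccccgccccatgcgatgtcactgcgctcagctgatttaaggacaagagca
Trim30a (chr7:104465194-104465393, minus strand): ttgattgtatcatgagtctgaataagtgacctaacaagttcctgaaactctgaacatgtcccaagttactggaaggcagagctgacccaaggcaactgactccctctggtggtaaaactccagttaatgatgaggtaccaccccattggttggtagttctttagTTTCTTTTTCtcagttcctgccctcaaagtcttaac
Slfn4 (chr11:83174986-83175185, plus strand): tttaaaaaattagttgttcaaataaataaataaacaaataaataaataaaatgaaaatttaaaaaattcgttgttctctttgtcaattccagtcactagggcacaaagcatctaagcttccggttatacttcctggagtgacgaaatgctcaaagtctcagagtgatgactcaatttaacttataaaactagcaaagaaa

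In Ifit1 the 2 matches begin 104 and 85 bases before the start and lie on the opposite strand. Those of Bst2 overlap, beginning 130 and 124 bases before it. The single matches of Rsad2, Slfn5 and Trim30a in these stretches begin 120, 155 and 36 bases before the start, that of Slfn5 inside a run rich in A. The Slfn4 window holds no match of these letters. A match was present in 3 of the 7 members that read at least 1.5-fold higher and had a window, in 2 of 3 that read at least 1.5-fold lower, and in 8 of 16 that did neither.

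**Figure D1:**
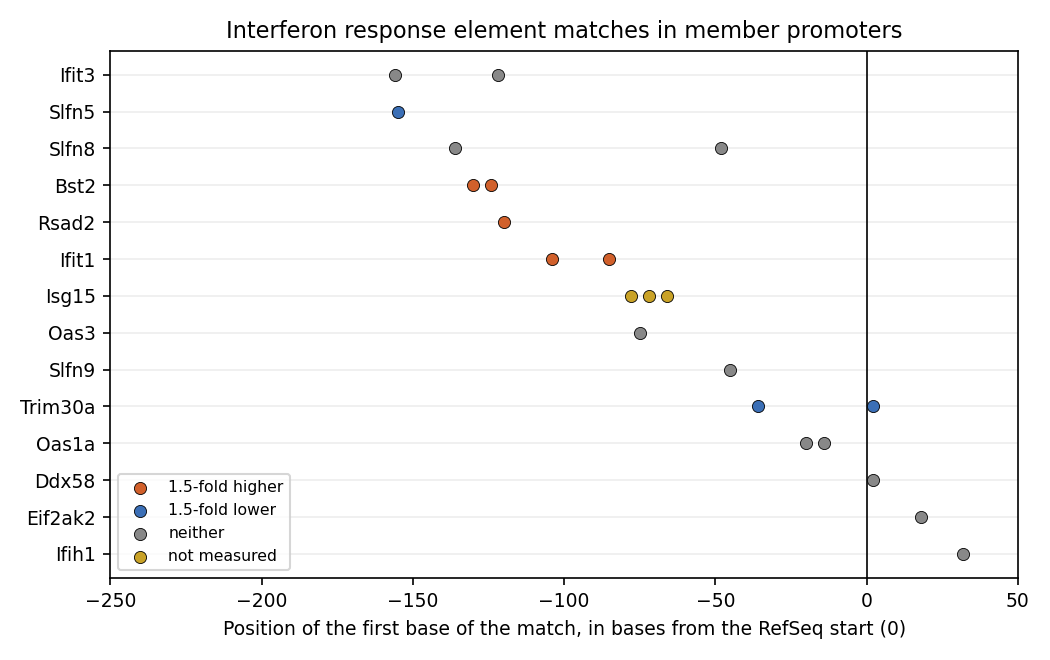
Position of the first base of each match of the interferon-stimulated response element in the promoter windows of the 14 genes with a match, in bases from the annotated start at 0. Colours give the reading of the gene in Il34LacZ/LacZ; the 3 higher genes with a match, Bst2, Rsad2 and Ifit1, have it between 85 and 130 bases before the start, and the points of Slfn8 are 1 site seen in 2 windows.

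Intensities below are the deposited values per probe set, on a linear scale, given for Il34+/LacZ first and Il34LacZ/LacZ second. Differences are log2(intensity + 16) of Il34LacZ/LacZ minus that of Il34+/LacZ. The floor is the median intensity of all probe sets over both arrays, 48.7, and where 1 array was below it the fold was taken against the floor and is a lower bound. Different probe sets of a gene disagreed by an SD of 0.63 on this scale (614 genes with at least 2 probe sets reaching the floor), or 1.55-fold, which is the single error these values offer and covers neither animals nor sorts. A 1.5-fold step is thus about the size of that SD, and most single readings below are not distinguishable from it. The difference also followed the level of a gene, so it is given with the loess trend on level removed as well. Langerin and MHC class II markers were far above the floor in both samples, with Cd207 at 3153.0 and 1852.0 and Cd74 at 7514.1 and 6837.0. Epcam read 632.9 and 707.7. Of 7 listed Langerhans cell markers 3 were at least 1.5-fold lower, Cd207, Csf1r and Itgae (42.9%, against 40.2% of genes of the same level). None was higher (against 1.72%), and Cd1d1 was below the floor on both arrays. T cell markers were well above the floor in both (summed over 5 genes, 7054.4 and 6225.2), with Cd3e at 1245.4 and 1250.3. In sorted cells measured in bulk, a change in the share of a cell type and a change in RNA per cell cannot be told apart.

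As a set, the members did not lie to either side. Their median difference was -0.13, against 0.09 over all genes and 0.00 over genes of the same level, and 0.02 with the trend removed. Of the 35, 13 read higher and 22 lower in Il34LacZ/LacZ, or 18 and 17 with the trend removed. Past a 1.5-fold step, 7 members were higher (20%, against a background of 6.02% of all genes and 11.6% of genes of the same level) and 5 were lower (14.3%, against 18.1% and 23.5%). With the trend removed 7 were higher (background 8.94%, same level 13.3%) and 7 lower (background 11.9%, same level 17.2%). The 7 higher genes were Slfn4, Rsad2, Oasl1, Ifit1, Isg20, Oasl2 and Bst2 by both measures. The 5 lower genes were Parp9, Slfn5, Ifi35, Trim30a and Parp14, also by both, and Slfn8 and Dhx58 joined them once the trend was removed.

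The members were spread more widely than the genes around them. The SD of their differences was 0.80, against 0.62 among genes of the same level, and 0.86 against 0.62 with the trend removed. Without the Schlafen genes it was 0.73 against 0.63. Ranked among the other genes of its own level bin (20 bins of equal size), 7 of 35 members lay at or above the 95th percentile and 1, Parp9, below the 5th. The median member lay at the 52.3 percentile of its bin. Of the 35 members 29 reached the floor on at least 1 array, of which 7 did so on 1 array alone, and 6 (Mx1, Mx2, Cmpk2, Eif2ak2, Slfn1 and Slfn9) were below it on both.

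**Figure D2:**
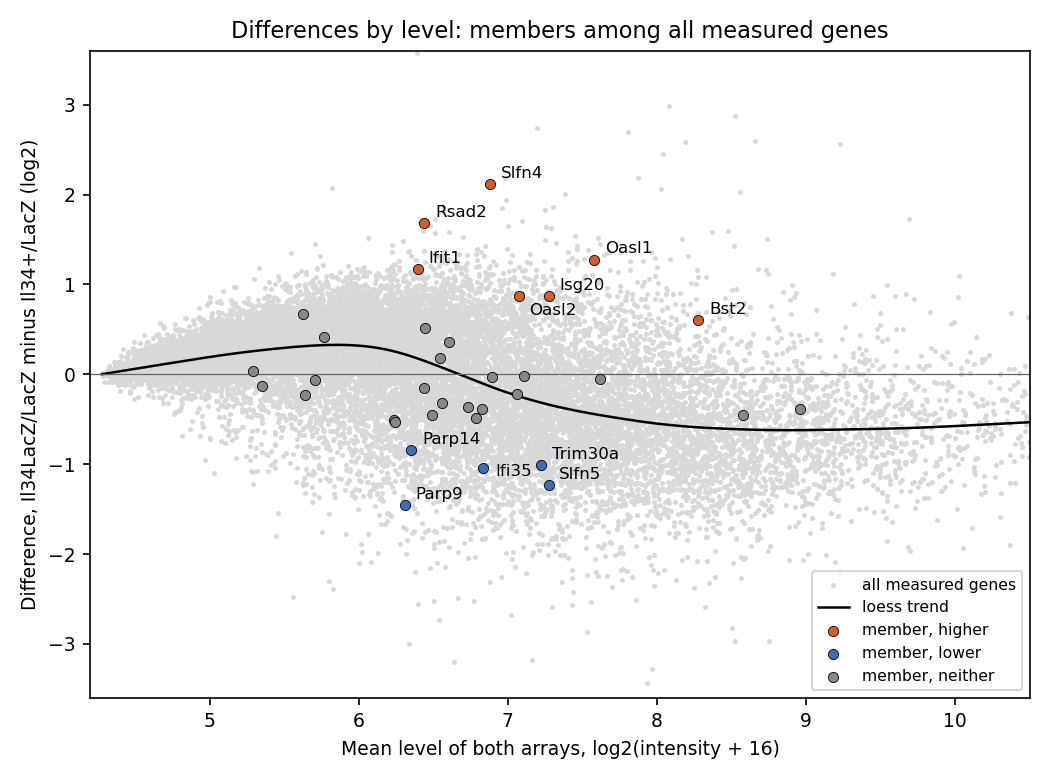
Difference between the genotypes (vertical, log2) against the mean level of both arrays (horizontal, log2) for all 19937 measured genes in grey, with the 35 members coloured by whether they were at least 1.5-fold higher, lower or neither, and the loess trend as a line. The 12 labelled members lie on both sides of the trend, from Slfn4 at 2.12 to Parp9 at -1.45.

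**Figure D3:**
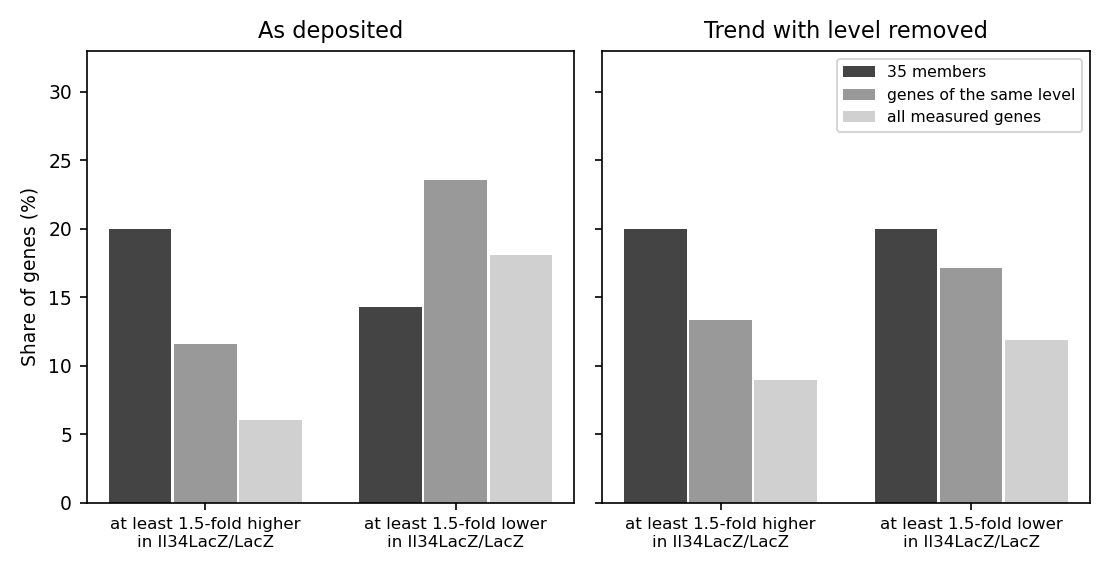
Share of genes (percent) at least 1.5-fold higher or lower in Il34LacZ/LacZ, for the 35 members, genes of the same level and all measured genes, as deposited on the left and with the trend removed on the right. Members exceed the other bars among higher genes on both sides, while among lower genes they are below them as deposited (14.3%) and above them with the trend removed (20%).

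Cytosolic sensors of viral nucleic acid were close to the floor, and none of the 4 measured passed 1.5-fold as deposited. Among genes of the same level 15.5% were higher and 19.0% lower. The RNA helicase RIG-I, encoded by Ddx58, read 89.0 and 68.4. Its relative MDA5, encoded by Ifih1, read 114.6 and 77.5, a difference of -0.48. Dhx58, which encodes the regulatory helicase LGP2, read 73.9 and 47.0, at least 1.39-fold lower and -0.77 with the trend removed. All 3 RIG-I-like genes thus read lower in Il34LacZ/LacZ, each by no more than the probe set SD as deposited. Zbp1, a sensor of Z-form nucleic acid that can trigger necroptosis, ran the other way at 70.1 and 94.1, a difference of 0.35.

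The IFIT proteins, which bind foreign RNA ends and block translation, did not read alike as a family although their genes cluster on chromosome 19. Ifit1 read 40.2 in Il34+/LacZ, below the floor, and 110.7 in Il34LacZ/LacZ, at least 1.96-fold higher. Ifit2 read 71.8 and 83.6, a difference of 0.18. Ifit3 read 127.9 and 107.9, a difference of -0.22 (0.02 without the trend), and its probes may also read a near-identical paralogue. Ifit1 alone of the 3 passed the 1.5-fold step (33.3%, against 18.2% of genes of the same level). None was lower, against 21.7%. The promoters of Ifit1 and Ifit3 each hold 2 matches of the response element.

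Within the OAS family Oasl1 and Oasl2 stood apart from Oas1a, Oas2 and Oas3. Of the 5 genes 2 were at least 1.5-fold higher (40%, against 15.4% of genes of the same level). None was lower, against 28.4%. Oas1a, Oas2 and Oas3 encode enzymes that make 2′-5′-linked oligoadenylates, the activators of RNase L. Oas1a, one of several near-identical copies and so uncertain, read 75.4 and 65.9. Oas2 read 104.3 and 101.7, and Oas3 read 89.6 and 60.9, a difference of -0.46. None of these 3 was 1.5-fold apart. Oasl1, which encodes an OAS-like protein that restrains translation of the factor IRF7, read 107.0 and 281.7, 2.42-fold higher in Il34LacZ/LacZ. Its chromosomal neighbour Oasl2 read 83.8 and 166.0, 1.82-fold higher. With the trend removed these differences were 1.72 and 1.11. Both lay above 95% of genes of their level. Usp18, which strips ISG15 from proteins and dampens signalling at the interferon receptor, read 114.0 and 83.2, a difference of -0.39 within the probe set SD.

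Among the other antiviral effectors 3 of 13 were at least 1.5-fold higher (23.1%, against 8.45% of genes of the same level). The lower ones were 2 (15.4%, against 24.8%), and 4 were below the floor on both arrays. Rsad2 encodes viperin, an enzyme that makes a chain-terminating nucleotide, and read 32.5 and 139.4, at least 2.40-fold higher. Cmpk2, its direct neighbour on chromosome 12, encodes a nucleotide kinase and read 23.2 and 46.3, both below the floor, so no fold is given. Its measured difference of 0.67 had the same sign as that of Rsad2. Isg20, a 3′ exonuclease of single-stranded RNA, read 98.4 and 193.1, 1.83-fold higher, and its difference was 1.21 with the trend removed. Bst2, which encodes tetherin, the protein that holds budding virus at the cell surface, read 235.6 and 367.0, 1.52-fold higher and so just past the step. Tetherin also marks plasmacytoid dendritic cells. Of 6 measured markers of those cells none was 1.5-fold higher, against 10.0% of genes of the same level. The 2 that were lower are 33.3%, near the 27.6% of genes of the same level. Summed over the 6, the level was 1310.2 and 541.2. Most of that fall is Ly6d (764.6 and 64.2), a gene that keratinocytes also express, while Siglech read 80.3 and 87.5. The part of such cells in the reading of Bst2 was not tested.

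The 2 lower effectors were Ifi35 and Trim30a. Ifi35, whose product pairs with NMI, read 147.6 and 63.6, 2.06-fold lower in Il34LacZ/LacZ. Trim30a, a ubiquitin ligase of the TRIM family with close paralogues beside it, read 196.0 and 89.4, 2.01-fold lower. With the trend removed the differences were -0.93 and -0.69, still larger than the probe set SD. Adar, Samhd1 and Eif2ak2 did not pass the step. Adar, which edits adenosine in double-stranded RNA, read 184.2 and 177.3. Samhd1, which breaks down the building blocks of DNA, read 430.4 and 309.4, a difference of -0.46 (0.16 without the trend). Eif2ak2, the kinase PKR that stops translation, read 26.6 and 22.9, below the floor on both arrays.

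The remaining effectors showed no 1.5-fold step either. Rtp4, a receptor transport protein, read 57.0 and 88.0, a difference of 0.51. Xaf1, a partner of the apoptosis inhibitor XIAP, read 104.6 and 77.5, a difference of -0.37. Mx1 read 37.3 and 35.02 and Mx2 22.6 and 23.7, all below the floor. Both MX genes, which in other strains encode antiviral GTPases, are annotated as transcribed pseudogenes in the RefSeq assembly of the C57BL/6J mouse; the strain used here is not given in the labels.

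Parp9, Dtx3l and Parp14 lie next to each other on chromosome 16 and did not read alike. PARP9 and the ubiquitin ligase DTX3L form a complex that amplifies interferon signalling, and PARP14 is a mono-ADP-ribosyltransferase. Parp9 read 115.0 in Il34+/LacZ and 31.9, below the floor, in Il34LacZ/LacZ, at least 2.02-fold lower. Parp14 read 93.6 and 45.0, at least 1.69-fold lower. Dtx3l read 122.4 and 120.9, a difference of -0.02. Of the 3 genes 2 were thus at least 1.5-fold lower (66.7%, against 20.1% of genes of the same level). None was higher, against 17.4%. Parp9 was the lowest of all members relative to its level, at the 1.31 percentile of its bin, whereas Dtx3l, its partner, lay at the 66.1 percentile.

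**Figure D4:**
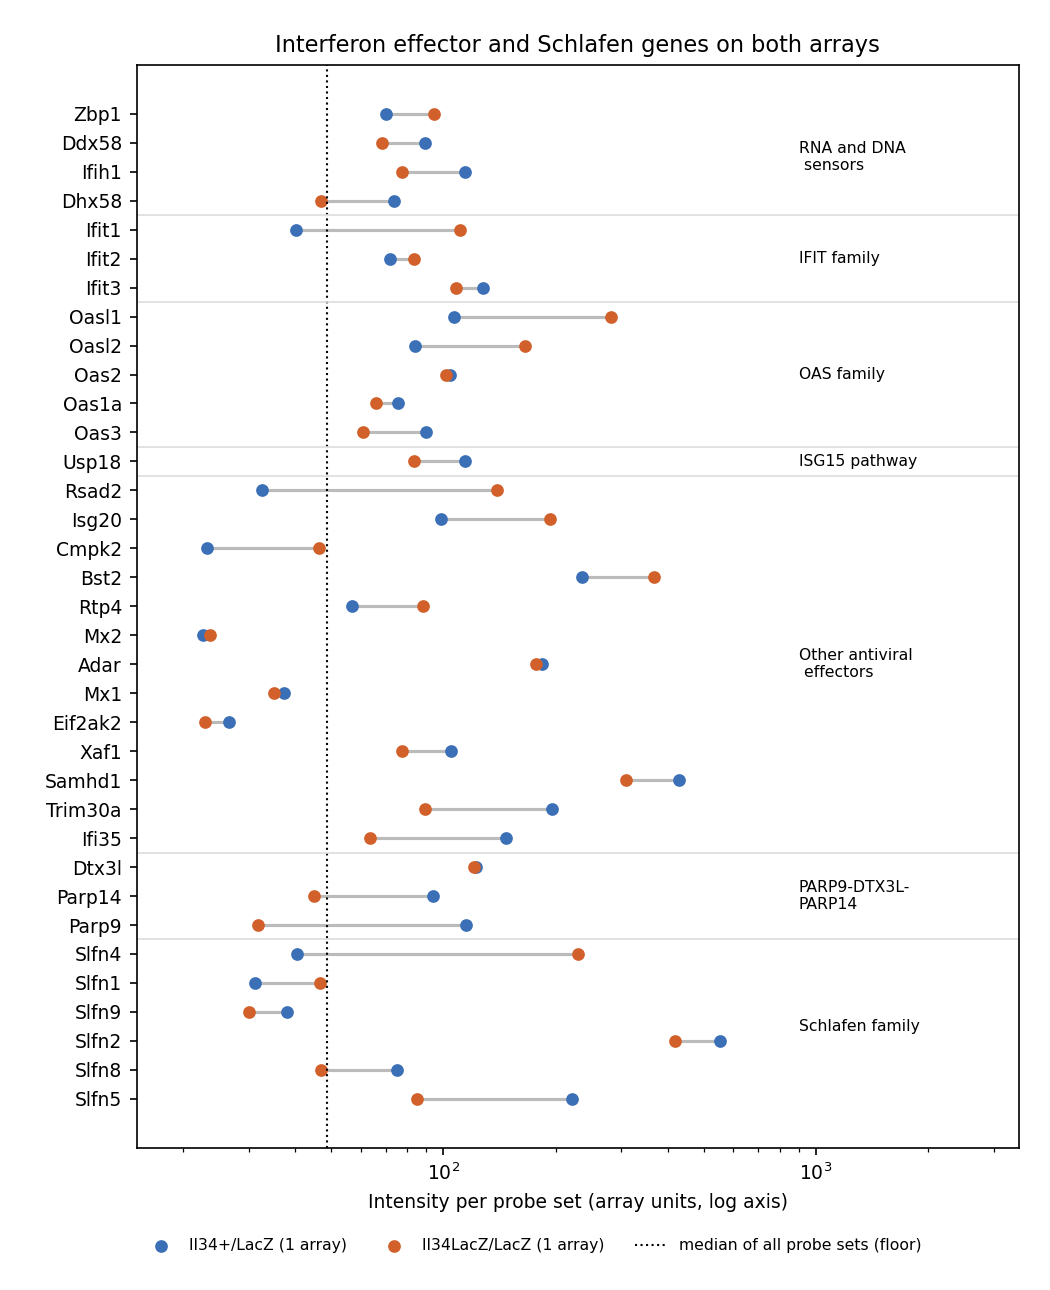
Intensity of the 35 measured members on the Il34+/LacZ array (blue) and the Il34LacZ/LacZ array (orange), on a log axis, grouped by role; each point is 1 array and the dotted line is the floor of 48.7. The widest gaps are those of Slfn4 (40.5 and 229.7) and Rsad2 (32.5 and 139.4) to the right and Parp9 (115.0 and 31.9) to the left in Il34LacZ/LacZ.

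As deposited 1 of the 6 Schlafen genes passed the 1.5-fold step upward. In the other direction 1 passed as well, a smaller share than among genes of the same level. Slfn4, a family member of monocytes and macrophages, read 40.5 in Il34+/LacZ, below the floor, and 229.7 in Il34LacZ/LacZ, at least 3.79-fold higher. Its difference of 2.12 (2.25 with the trend removed) exceeded that of every other member and of 99.9% of genes of its level. Slfn5, at the other end of the cluster, read 221.5 and 84.7, 2.36-fold lower and -0.90 with the trend removed. These 2 genes had the largest differences of the family, in opposite directions.

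Slfn2, needed for T cell quiescence, read 552.4 and 418.4, a difference of -0.39 (0.23 without the trend). Slfn8 read 75.2 and 47.0, at least 1.41-fold lower, with -0.79 after removal of the trend. Slfn1 (31.1 and 46.6) and Slfn9 (38.0 and 30.0) were below the floor on both arrays. Slfn1, Slfn8 and Slfn9 have close paralogues in the cluster, so their probes may not separate them. Over the 6 genes the median difference was -0.31, or -0.23 with the trend removed. As deposited 1 was at least 1.5-fold higher (16.7%, against 5.72% of genes of the same level) and 1 lower (16.7%, against 21.8%). After the trend was removed 1 was higher (16.7%, against 10.97%) and 2 were lower (33.3%, against 14.1%). Of the Schlafen genes outside the list, Slfn3 read 40.3 and 60.3, Slfn10-ps 70.8 and 56.3 and Slfnl1 41.2 and 47.7, none of them 1.5-fold apart. Among genes of their level 7.05% were higher and 4.93% lower.

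Markers of other myeloid cells and of keratinocytes differed along with these genes. Of 8 neutrophil markers 3 were at least 1.5-fold higher in Il34LacZ/LacZ (37.5%, against 1.57% of genes of the same level). None was lower, against 12.1%. Their summed level was 320.1 and 1514.5, most of it S100a8 (71.9 and 552.1) and S100a9 (103.2 and 698.6). Ly6g, the defining surface marker, read 8.5 and 11.5, below the floor. Of 10 monocyte and macrophage markers 5 were higher (50%, against 8.97% of genes of the same level) and 2 lower (20%, against 42.8%). They summed to 1799.6 and 3550.0, among them Pf4 at 148.1 and 975.3 and Acod1 at 94.0 and 484.7. The 2 lower ones were Adgre1 (281.0 and 144.6) and Plac8 (173.2 and 91.1). Of 7 keratinocyte markers 6 were lower (85.7%, against 40.1% of genes of the same level) and none higher (against 9.87%). They summed to 3565.0 and 542.4. No marker of these lists was at 0. The part of these cells in the readings of Slfn4, Rsad2 and the other members was not tested.

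Upstream of the effectors, the interferon beta gene read higher and most genes of its receptor pathway lower as deposited. Ifnb1 read 33.3 in Il34+/LacZ, below the floor, and 165.3 in Il34LacZ/LacZ, at least 2.80-fold higher and 1.81 with the trend removed. It was the single gene past 1.5-fold among 14 measured type I and III interferon genes, 7 of which were below the floor on both arrays. This 1 higher gene is 7.14% of the list, near the 5.44% of genes of the same level. None was lower, against 9.39%. Ifna14 (63.8 and 102.6), Ifna9 (48.3 and 70.7) and Ifna2 (45.0 and 64.6) read higher by less than 1.5-fold, and these alpha genes are near-identical copies whose probes may not separate them.

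Most of the receptor pathway read lower, as did many genes of its level. Of 14 measured receptor and signalling genes 10 passed the 1.5-fold step downward in Il34LacZ/LacZ (71.4%, against 44.05% of genes of the same level). None passed it upward, against 5.74%. The 10 include regulators of the pathway, the phosphatase genes Ptpn6, Ptpn11 and Ptpn1 and the ligase gene Pias1. The median of the 14 was -0.86, against -0.50 for genes of the same level. With the trend removed 4 were lower (28.6%, against 16.1%) and 1 higher (7.14%, against 16.2%), and the median was -0.36. Ifnar1 read 334.2 and 156.0 and Ifnar2 801.4 and 366.2, 2.04-fold and 2.14-fold lower. Once the trend was taken out, the 2 receptor chains were apart by -0.49 and -0.48, less than the SD between probe sets. The kinase genes Jak1 (891.0 and 359.5) and Tyk2 (374.8 and 111.9) were 2.42-fold and 3.06-fold lower, and stayed past 1.5-fold with the trend removed. Irf9, the DNA-binding subunit of the complex, read 204.7 and 55.8, 3.07-fold lower and -1.43 with the trend removed, while Stat2 read 238.9 and 155.6, 1.49-fold lower. Pias1, a SUMO ligase that restrains cytokine signalling, differed most at 311.0 and 65.1, 4.03-fold lower. Irf7, itself interferon-inducible and the main driver of interferon alpha, read higher at 215.2 and 296.1, a difference of 0.43 (0.99 without the trend).

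**Figure D5:**
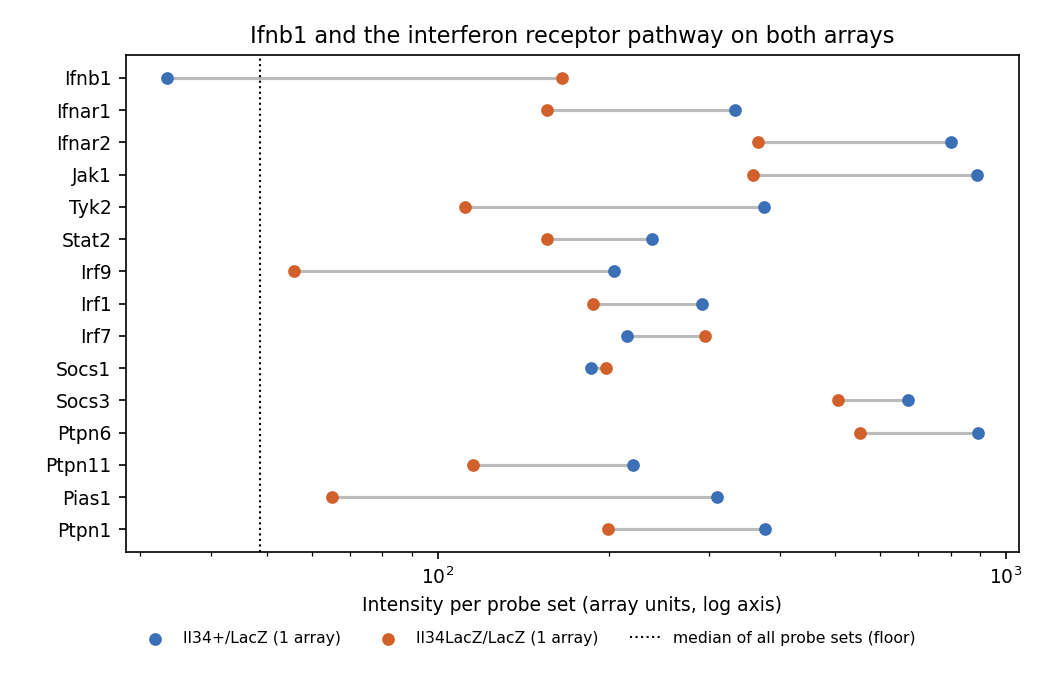
Intensity of Ifnb1 and of 14 genes of the interferon receptor pathway on the Il34+/LacZ array (blue) and the Il34LacZ/LacZ array (orange), on a log axis, with the floor of 48.7 dotted. Ifnb1 reads 33.3 and 165.3, whereas Ifnar1, Ifnar2, Jak1, Tyk2 and Irf9 all lie to the left in Il34LacZ/LacZ. Irf7 and Socs1 lie to the right.

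Of 13 genes that link nucleic acid sensing to interferon production, 5 were at least 1.5-fold lower (38.5%, against 28.5% of genes of the same level). None was higher, against 8.54%. After the trend was removed 3 were lower (23.1%, against 14.3%) and 2 higher (15.4%, against 12.6%). The DNA receptor Tlr9 read 683.1 and 179.9, 3.57-fold lower, and the adaptor Sting1 read 479.9 and 138.2, 3.22-fold lower. Ticam1, the adaptor of TLR3, read 120.2 and 51.7, 2.01-fold lower, and the kinase Tbk1 204.4 and 116.1, 1.67-fold lower. Tlr9, Sting1 and Ticam1 remained past 1.5-fold without the trend, and Tbk1 did not.

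Of 40 measured interferon-stimulated genes outside the list, 4 were at least 1.5-fold higher (10%, against 7.77% of genes of the same level) and 8 lower (20%, against 27.5%). With the trend removed 5 were higher (12.5%, against 12.0%) and 8 lower (20%, against 14.4%). Their median was -0.20 against -0.12 for genes of the same level. The chemokine Cxcl10 read 274.8 and 616.6, 2.18-fold higher, and Ifi205, of the same family as Ifi204, read 119.2 and 263.2, 2.06-fold higher. The peptide transporter Tap1 read 374.9 and 114.0, 3.01-fold lower, and Tor3a 107.6 and 37.8, at least 1.91-fold lower. Each of these 4 kept its direction past 1.5-fold with the trend removed.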

How the data were processed

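Per the labels' protocols, total RNA of sorted cells was extracted with a column kit and biotinylated cRNA was made from 2 ng. The authors deposited linear intensities, 1 for each probe set of an array. Summarisation, background correction and scaling were not given in the sources used here. In all, 34760 probe sets were listed, of which the platform annotation gave 21640 a single symbol, 1321 several and 11799 none. Single-symbol probe sets were named, and 21553 matched the RefSeq gene table of GRCm38.p6 by gene number. Older symbols of listed genes were updated through it (Sting1, Cgas).

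Each gene was represented by its probe set of highest mean, as log2(intensity + 16). A gene was called apart at 1.5-fold with both levels raised to the floor. With the trend removed, it was called from the measured difference if the brighter array reached the floor. The trend was a loess fit with a fraction of 0.3 over single-symbol probe sets. Genes of the same level are non-members in 20 equal bins of mean level, weighted to the members. Trend removal was tested on simulated data. The number of arrays, 1 per genotype, limits the precision, and no p-value is given.

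The members, lists, thresholds and motifs were chosen with earlier results of these data known. All members were named, with up to 4 genes of each pathway list by size and Ifnb1, Ifnar1, Ifnar2, Stat2, Irf7 and Irf9 whatever their values. Alternatives changed the pseudocount, scaling, trend, probe set rule, floor, filter and paralogous members. Python 3.11.15, numpy 2.4.6, pandas 2.3.3 and statsmodels 0.14.6 were used.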

Additional observations from a re-analysis of the deposited data

How the results depend on the processing

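The 7 higher and 5 lower members kept their direction under pseudocounts of 1 and 64, centring of the arrays, quantile normalization, trend removal and averaging of probe sets. All but Bst2 and Parp14 also stayed past 1.5-fold in each of these; Bst2 ran from 0.46 to 1.197 and Parp14 from -1.04 to -0.53. Among the other 23 members 16 kept their sign. Averaging probe sets could not alter a member, since each had 1. The median of the members turned from -0.13 to 0.023 with the trend removed and was -0.28 with the arrays centred on their medians, which shifts the median of all genes by -0.15. That centring gave 6 higher and 8 lower members (42.9% of those apart were higher, against 58.3% as deposited). With the floor at the 75th percentile 3 members were higher and 1 lower, since fewer reach it. Over the other alternatives the counts ran from 6 to 8 higher and from 4 to 7 lower. Members near the floor are bounded by it and by probe set noise. No paired analysis was possible because each genotype had 1 array.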
